A study of Mus musculus with 6 samples.

Results

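The 37 genes described here encode chaperones and folding enzymes of the endoplasmic reticulum (ER), the sensors and factors of the unfolded protein response, the Atf4 pathway of the integrated stress response, and ER degradation and translocon components. They were picked by name out of 47643 genes in the expression tables of regulatory T cells (Tregs) from mouse bone marrow. By role they divide into 18 ER chaperones and folding enzymes, 4 sensors and sensor targets, 7 genes of the Atf4 pathway, 4 genes of ER-associated degradation and 4 translocon genes. The study sequenced RNA from 6 samples. In 3 of them, numbered 3, 4 and 5, the donors were Vk*MYC-injected mice, that is, recipients of a myeloma that arose in mice with MYC switched on in B lineage cells. The other 3, numbered 1, 3 and 5, came from control mice. The sources used here do not say what the control mice received, nor the strain, age or sex of the animals. In both groups the cells were sorted as CD4+ FOXP3-GFP+, so all animals carried a green fluorescent reporter for Foxp3, the transcription factor that defines Tregs. Nothing in the labels ties a replicate number to an animal or a day. P-values therefore measure only the spread between these samples.

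Cells fold secreted and membrane proteins in the ER, and 3 sensors watch over that work. Ern1 (Ire1) splices the mRNA of Xbp1, Atf6 is released as a transcription factor, and Eif2ak3 (Perk) phosphorylates the translation factor eIF2. Xbp1 and Atf6 drive chaperone genes, whereas phosphorylated eIF2 lowers general protein synthesis and favours translation of Atf4, whose targets serve amino acid supply and the stress response. Other kinases can also phosphorylate eIF2, so the Atf4 pathway can run without ER stress. Plasma cells, which secrete antibody, are known for very high levels of the ER chaperones.

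The libraries held between 10240620 and 13314631 expected counts each, and 13235 genes passed the filter on low counts. Foxp3 was present at 991 to 1068 CPM (counts scaled to library size) in the myeloma libraries and at 992 to 1247 CPM in the controls (log2 fold change -0.15, edgeR adjusted p = 0.385). Transcripts of other cells were not spread evenly. Immunoglobulin genes with Jchain, Sdc1, Tnfrsf17 and Mzb1, 13 plasma cell genes in all, totalled 46.8 to 114 CPM in the controls but 374, 1388 and 2856 CPM in the myeloma libraries (3, 4 and 5 in that order). Of these 13, 9 were tested, and 5 rose and none fell (edgeR). The light chain gene Igkc and the heavy chain gene Ighg2b made up most of the sum in replicates 4 and 5, whereas Igha (101.8, 81.5 and 37.6 CPM) and Ighg2c (68.1, 21.2 and 0.0893 CPM) were highest in replicate 3. Tnfrsf17, the receptor BCMA, had no counts in any control, and the plasma cell surface marker Sdc1 stood at 1.10, 9.23 and 25.2 CPM in myeloma against 0.601 to 1.45 CPM, so that replicate 3 was within the control range for it. Jchain, Sdc1, Tnfrsf17 and Mzb1 together, however, held 40.0, 145 and 257 CPM in myeloma against 5.46, 3.87 and 8.71 CPM, so their sum in replicate 3 exceeded every control. That excess was not shared by most of them. Of the 3 tested, the groups were apart in 1 and overlapped in 2, and their median log2 difference with replicate 3 alone against the controls was -0.01. Macrophage genes were also high in myeloma replicate 5, at 468 CPM against 45.0 to 153 CPM in the other libraries. Neutrophil genes summed to 146, 505 and 455 CPM in myeloma and 205, 67.3 and 174 CPM in controls. B cell genes went the other way, at 32.1, 47.2 and 78.5 CPM against 52.3, 259 and 327 CPM, with 5 of 10 called lower and none higher (edgeR). Immediate early genes, which respond within minutes to stimulation or handling, summed to 3263 to 4254 CPM in myeloma and 5410 to 8763 CPM in controls, and haemoglobin and other red cell genes to 3846 to 4769 CPM and 6712 to 14732 CPM. In bulk RNA, fewer cells of a type and less RNA per cell cannot be told apart. The part of these differences in the results below was not tested except where stated.

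Promoter sequence set some of the members apart. RefSeq windows from 250 bases before to 50 bases after the transcript start (GRCm38.p6) were at hand for 31 of the 37 genes. They were searched on both strands for the ER stress element (ERSE), CCAAT followed after any 9 bases by CCACG, at which Atf6 and NF-Y are known to bind. It occurred in 8 of the 34 member windows, those of 8 genes, against 0.119% of all 32851 mouse windows. The members were picked by name as chaperone and stress response genes, so a share above that of all windows is not a finding. The sites of the 8 genes are shown because they mark the classical chaperone promoters. Capitals are the letters the motif fixes.

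Hspa5 (chr2:34772025-34772043): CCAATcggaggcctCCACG
Hsp90b1, distal (chr10:86705638-86705656): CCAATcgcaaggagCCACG
Hsp90b1, proximal (chr10:86705533-86705551): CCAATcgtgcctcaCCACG
Calr (chr8:84847075-84847093): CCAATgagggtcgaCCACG
Canx (chr11:50325800-50325818): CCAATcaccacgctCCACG
Pdia6 (chr12:17266491-17266509): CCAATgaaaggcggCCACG
Dnajc3 (chr14:118937827-118937845): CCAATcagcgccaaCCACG
Creld2 (chr15:88819520-88819538): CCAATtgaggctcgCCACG
Syvn1 (chr19:6046532-6046550): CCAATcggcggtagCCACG

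The 9 bases between the fixed ends differed in every site. Hsp90b1 held a site in each orientation, and its promoter up to base -66 is printed on the gene's strand (minus strand of chr10:86705510-86705694), with both sites in capitals, the proximal one as its reverse complement.

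Hsp90b1: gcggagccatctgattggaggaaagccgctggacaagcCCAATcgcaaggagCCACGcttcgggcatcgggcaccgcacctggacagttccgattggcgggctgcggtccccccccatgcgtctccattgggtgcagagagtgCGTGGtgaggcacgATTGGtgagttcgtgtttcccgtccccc

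A shorter form, ERSE-II, ATTGG followed after any 1 base by CCACG, occurred in Dnajb11 and Herpud1 and in 0.0365% of all windows. The C/EBP-ATF response element (CARE, TGATGNAA), at which Atf4 is known to bind, occurred in Asns, Chac1, Herpud1 and Trib3 and in 3.97% of all windows. The core TGACGTGG of a further Xbp1 and Atf6 element was in no member's window and in 0.676% of all. Herpud1 was the member with both an ERSE-II and a CARE, and its 250 bases before the start (plus strand of chr8:94386179-94386428) are shown with both in capitals, the CARE as its reverse complement.

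Herpud1: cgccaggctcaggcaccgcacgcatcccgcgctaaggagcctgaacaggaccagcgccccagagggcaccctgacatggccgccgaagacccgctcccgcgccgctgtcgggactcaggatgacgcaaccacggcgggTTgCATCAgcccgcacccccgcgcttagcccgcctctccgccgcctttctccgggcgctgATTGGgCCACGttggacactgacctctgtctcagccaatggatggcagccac

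The first question was which of these genes differed between Tregs of myeloma-bearing and control marrow. Of the 37, 36 had enough counts to be tested, and 10 were higher and 2 were lower in myeloma at an adjusted p under 0.05 (edgeR quasi-likelihood test, Benjamini-Hochberg over all genes). Over all genes, 6.33% were called higher and 4.69% lower. The higher members were 6 ER chaperones or folding enzymes, 3 translocon genes and Ddit3, and the lower were Dnajb9 and Ppp1r15a. The median log2 fold change was 0.21 over the tested members and 0.02 over all genes. In 15 members every myeloma library lay above every control and in 4 every one lay below, whereas 17.3% and 16.0% of all genes did so, 33.3% in either direction.

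The calls rested on these 6 libraries to different degrees. Manf, Sec61b, Dnajb9 and Ppp1r15a kept their calls when any library was left out. The count of higher members was 3 rather than 10 if myeloma replicate 4 was left out, 3 if control replicate 3 was, and 6 if control replicate 5 was, while the count of lower members was 2 each time.

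**Figure D1:**
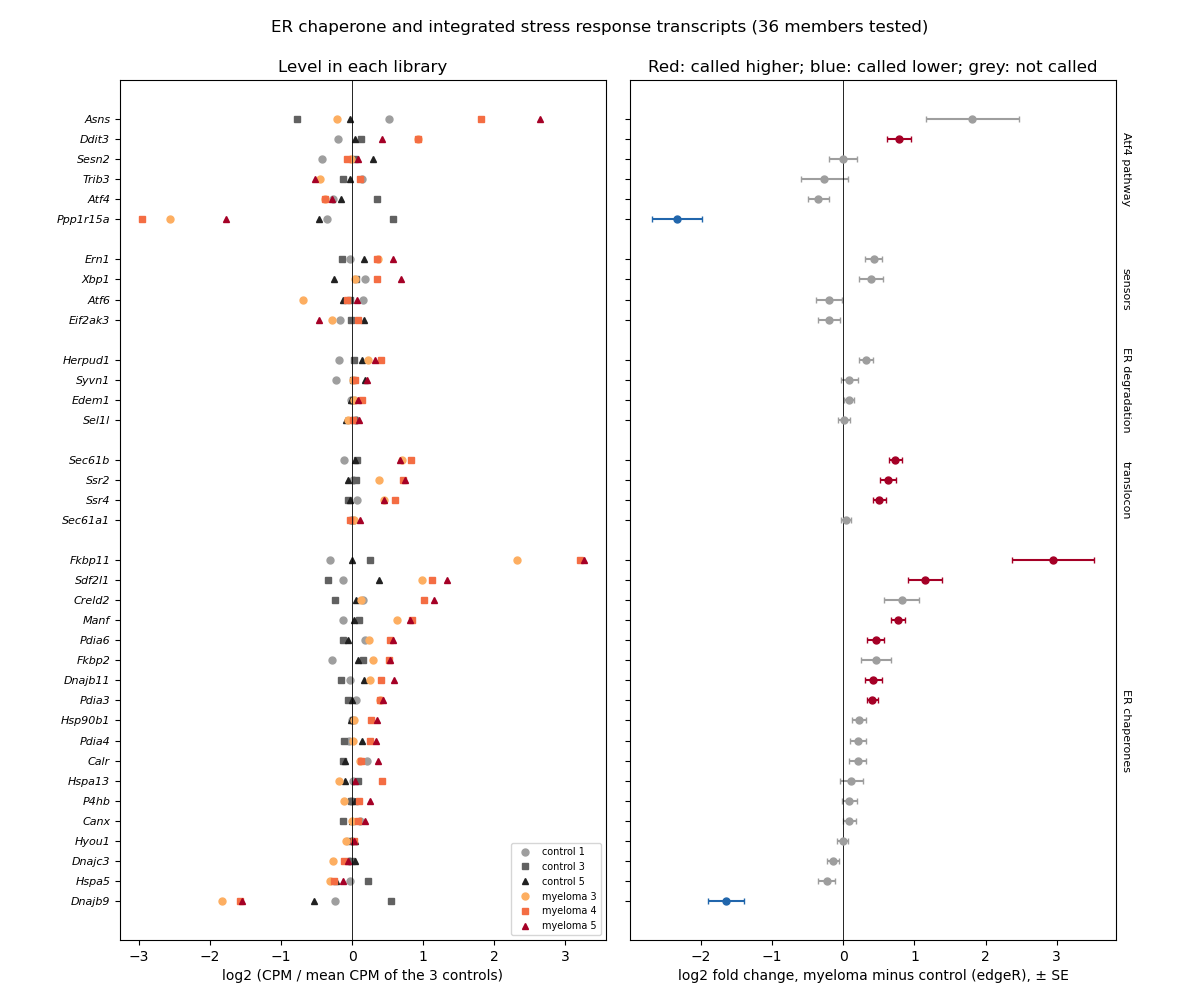
Left, the level of each tested member in each library as log2 of its CPM over the mean of the 3 controls; right, the edgeR log2 fold change (myeloma minus control) with its standard error. Genes are grouped by role; Fkbp11 lies farthest to the right at 2.94 and Ppp1r15a farthest to the left at -2.34.

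Among the 18 ER chaperones and folding enzymes, 6 rose, 1 fell and 11 were not called, with a median log2 fold change of 0.22. The most abundant of them per transcript length, Hspa5 (BiP), the Hsp70 of the ER lumen and the usual marker of ER stress, did not pass. It measured 349.9, 363 and 398 CPM in myeloma replicates 3, 4 and 5 against 425, 508 and 371 CPM in control replicates 1, 3 and 5 (log2 fold change -0.23 ± 0.12, edgeR adjusted p = 0.248, ± being the standard error throughout). The groups overlapped, and control replicate 3 was the highest library. Hsp90b1 (Grp94), the ER member of the Hsp90 family, measured 318 to 400 CPM in myeloma and 309.7 to 315 CPM in controls (log2 fold change 0.22, adjusted p = 0.174). All 3 myeloma libraries lay above the controls, replicate 3 by less than 4 CPM. Exons of Hsp90b1 share bases with an opposite-strand pseudogene, 1810014B01Rik, and the kit named in the labels is not one that marks strand.

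Manf, a small secreted ER protein that binds BiP, had the smallest adjusted p of the 18 chaperones. Its level was 68.8, 79.7 and 78.1 CPM in the myeloma libraries and 40.6, 47.4 and 45.1 CPM in the controls. The groups were well apart, and the rise was 1.70-fold (log2 fold change 0.77 with SE 0.10, edgeR adjusted p = 0.00283). The gene lies at chr9:106838312-106891979 (GRCm38, GENCODE annotation, minus strand), and its exons share some bases with Dcaf1 and the antisense gene 4930524O07Rik. Sdf2l1, which works with the BiP cochaperone Dnajb11, measured 13.97, 15.4 and 17.9 CPM in myeloma against 6.48, 5.58 and 9.22 CPM, a rise of 2.22-fold (SE 0.24 on the log2 scale, adjusted p = 0.0185). Without myeloma replicate 4 or control replicate 3 its adjusted p was 0.0619 and 0.0753.

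The cochaperones of BiP did not move together. Dnajb9 (ERdj4), which stimulates the ATPase of BiP and holds Ern1 inactive, fell 3.13-fold. It measured 25.1, 29.8 and 30.3 CPM in myeloma and 75.1, 129.9 and 61.6 CPM in controls (log2 fold change -1.65 ± 0.25, edgeR adjusted p = 0.00568). All myeloma libraries were below all controls, and control replicate 3 was again the highest. Dnajb11 (ERdj3), by contrast, was called higher at 84.1, 93.1 and 106.4 CPM against 68.8, 63.6 and 79.3 CPM (log2 fold change 0.42 ± 0.12, adjusted p = 0.0499). That call was at the edge and was lost when any of the 6 libraries was left out, with adjusted p from 0.0556 to 0.183. Dnajc3 (p58IPK), an inhibitor of Eif2ak3, was not called at 98.1 to 113 CPM against 114 to 122 CPM (adjusted p = 0.301). Hyou1, which exchanges nucleotide on BiP, measured 87.9 to 95.0 CPM and 90.4 to 95.9 CPM (log2 fold change -0.01), and Hspa13, a divergent Hsp70, 20.1 to 30.5 CPM and 21.3 to 24.2 CPM.

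Creld2 and Fkbp11 stood out by how unequal the myeloma libraries were. Creld2, a cysteine-rich protein induced by ER stress, measured 20.5, 37.7 and 41.6 CPM in myeloma replicates 3, 4 and 5 and 20.9, 15.9 and 19.5 CPM in controls. Replicate 3 lay inside the control range and the other two lay well above it, and the gene was not called (log2 fold change 0.82 ± 0.24, edgeR adjusted p = 0.0629). It was called without replicate 3 (adjusted p = 0.0144) and by DESeq2 (0.0123). Fkbp11, a prolyl isomerase of secretory cells, was rare, with 17, 27 and 31 counts in myeloma and 3, 4 and 4 in controls. Its level of 1.44, 2.68 and 2.77 CPM against 0.234, 0.344 and 0.290 CPM gave the highest fold change of the members, 7.70-fold (log2 2.94, SE 0.58, adjusted p = 0.0155). The call was lost without myeloma replicate 4 or any control, at adjusted p from 0.0535 to 0.0751. The related Fkbp2 measured 10.6 to 12.5 CPM and 7.10 to 9.62 CPM, apart but not called (adjusted p = 0.200).

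Of the 4 disulfide isomerases, which form and reshuffle disulfide bonds, 2 rose. Pdia3 (ERp57), the partner of calreticulin and calnexin, was nearly equal within each group at 430.5, 434 and 443 CPM in myeloma and 341, 317 and 329 CPM in controls. The rise was 1.32-fold (SE 0.08 on the log2 scale, adjusted p = 0.0133 by edgeR), and its adjusted p moved to 0.054 and 0.0522 when myeloma replicate 3 or 4 was left out and to 0.076 when control replicate 3 was. Pdia6 measured 87.1, 107 and 110.0 CPM against 83.3, 67.4 and 70.6 CPM (log2 fold change 0.46 ± 0.12, adjusted p = 0.0409). Its call was lost without myeloma replicate 4 or 5 or control replicate 3 or 5, at adjusted p from 0.0857 to 0.154. Pdia4 (95.8 to 120.1 CPM against 87.7 to 104 CPM) and P4hb (133 to 170.3 CPM against 141 to 147 CPM) overlapped between groups and were not called. The lectin chaperones were likewise not called, Calr at 309.9 to 369 CPM against 265 to 332 CPM and Canx at 204 to 231 CPM against 187 to 221 CPM.

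The translocon genes had the highest median of the 5 roles, 0.57 on the log2 scale, and 3 of 4 rose. Sec61b, the small beta subunit of the Sec61 channel, measured 70.0, 76.4 and 68.9 CPM in myeloma and 40.0, 45.4 and 44.3 CPM in controls. The groups did not overlap and the rise was 1.66-fold (log2 fold change 0.73 ± 0.09, edgeR adjusted p = 0.00252). Sec61b lies at chr4:47474658-47483242 (plus strand) and shares exon bases with no other annotated gene. Ssr2 and Ssr4, subunits of the translocon-associated TRAP complex, stood at 54.9, 69.4 and 70.5 CPM against 42.5, 43.5 and 40.3 CPM, and at 68.1, 75.8 and 68.0 CPM against 52.4, 47.9 and 48.9 CPM. Ssr2 rose 1.54-fold (SE 0.11 on the log2 scale, adjusted p = 0.0115) and Ssr4 1.42-fold (SE 0.09, adjusted p = 0.0102). Exons of Ssr2 share 239 bases with an opposite-strand pseudogene, Gm10704. Ssr2 was no longer called without myeloma replicate 4 (0.0531), nor Ssr4 without control replicate 3 (0.0585). Sec61a1, which forms the channel itself, measured 166 to 184 CPM against 169.9 to 170.6 CPM (log2 fold change 0.04, SE 0.08). The members called higher had shorter transcripts, with a median longest transcript of 2211 bases against 3348 for the members not called. After correction for transcript length and GC content, chosen after seeing the data, 8 members were higher and 2 lower, with Ddit3, Dnajb11 and Pdia6 lost and Ern1 gained.

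None of the 4 degradation genes passed the edgeR test, and none had an unadjusted p under 0.05 apart from Herpud1. Herpud1, a scaffold of the degradation complex, measured 84.8, 96.5 and 90.2 CPM in myeloma and 63.8, 73.8 and 79.7 CPM in controls (log2 fold change 0.32 ± 0.10, adjusted p = 0.0782). The groups were apart but close. Edem1, which marks misfolded glycoproteins, measured 256 to 275 CPM against 249 to 254 CPM. Sel1l and Syvn1 (Hrd1), the core of the ubiquitin ligase, lay at 99.5 to 111 CPM against 98.3 to 108 CPM and at 72.4 to 83.5 CPM against 61.9 to 81.6 CPM, both overlapping. DESeq2 called none of the 4 either.

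None of the 4 sensors was called by edgeR or DESeq2, and 2 (Xbp1 and Ern1) had an unadjusted p under 0.05 in edgeR. Xbp1, counted here as total mRNA with no information on splicing, measured 65.9, 81.6 and 103 CPM in myeloma and 72.1, 66.1 and 53.3 CPM in controls (log2 fold change 0.39 ± 0.17, edgeR adjusted p = 0.169). Ern1 measured 36.3, 35.9 and 42.1 CPM against 27.6, 25.6 and 31.6 CPM and just missed the threshold (log2 fold change 0.43 ± 0.12, adjusted p = 0.0552). It was called after the length and GC correction (0.0121), and without the filter on low counts both Ern1 (0.0452) and Xbp1 (0.0142) were called higher. Their log2 fold changes were no larger without that filter, at 0.41 and 0.37, so these calls do not reflect a larger difference. Atf6 measured 25.5, 39.2 and 42.95 CPM against 45.6, 40.2 and 37.5 CPM, with myeloma replicate 3 the lowest, and Eif2ak3 34.6 to 50.3 CPM against 42.4 to 53.3 CPM.

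The Atf4 pathway split. Of its 6 tested members 1 rose, 1 fell and 4 were not called, with a median log2 fold change of -0.13. Ppp1r15a (Gadd34), which brings a phosphatase to eIF2 and so ends the response, fell 5.06-fold, the largest fall among the members. It measured 92.9, 70.6 and 160.4 CPM in the myeloma libraries and 429, 815 and 396 CPM in the controls (log2 fold change -2.34 ± 0.35, edgeR adjusted p = 0.00529). No library overlapped, myeloma replicate 5 was the highest of its group and control replicate 3 of all. With outlier-robust dispersions the adjusted p was 0.0514. Ddit3 (Chop), a transcription factor of prolonged stress, went the other way. It measured 34.1, 34.1 and 23.8 CPM against 15.6, 19.6 and 18.4 CPM, a rise of 1.72-fold (SE 0.17 on the log2 scale, adjusted p = 0.0226). The Ddit3 call was lost when any library but myeloma replicate 5 was left out, at adjusted p from 0.0623 to 0.0899. Exons of Ddit3 share 68 bases with Mars on the opposite strand. They share 105 bases with another annotated gene, also named Ddit3, on the same strand.

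Atf4 itself measured 177, 176 and 188 CPM in myeloma against 191, 292 and 207 CPM in controls. The myeloma libraries all lay below, but the gene was not called (log2 fold change -0.35 ± 0.15, edgeR adjusted p = 0.161). Without the filter on low counts, with 26583 genes tested, it was called lower (edgeR adjusted p = 0.00879) at nearly the same log2 fold change, -0.37. The smaller p thus came with the change of filter and hardly with a larger difference, and it is not separate evidence. Asns, the asparagine synthetase and a classical Atf4 target, varied most of the tested members among the myeloma libraries. It measured 1.78, 7.245 and 12.95 CPM in myeloma replicates 3, 4 and 5 and 2.97, 1.20 and 2.03 CPM in controls (log2 fold change 1.81 ± 0.65, adjusted p = 0.107). Replicate 3 was within the control range, and without it Asns was called (adjusted p = 0.0364), as it was by DESeq2 with all libraries (0.0222). Trib3, a pseudokinase that dampens Atf4 activity, measured 3.39 to 5.26 CPM against 4.47 to 5.38 CPM, and Sesn2, an inhibitor of mTORC1, 15.3 to 17.1 CPM against 12.02 to 19.7 CPM. Chac1, a glutathione-degrading Atf4 target, had 4, 5 and 0 counts in myeloma and 1, 0 and 0 in controls, too few to test.

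Ppp1r15a and Dnajb9 were lower in the same libraries as the immediate early genes. Of 16 genes of that list 8 fell and none rose. By smallest p these were led by Btg2 (log2 fold change -1.18, edgeR adjusted p = 0.00414), Zfp36 (-1.12, 0.00746) and Fos (-2.19, 0.011, or 0.084 with outlier-robust dispersions and 0.0503 without myeloma replicate 3). Control replicate 3 held the highest sum of the list, 8763 CPM, and the highest Ppp1r15a, Dnajb9, Atf4 and Hspa5 of all libraries. It also held the highest sum of red cell genes. The part of either in the members' falls was not tested. Without control replicate 3 the log2 fold changes were -1.94 for Ppp1r15a and -1.27 for Dnajb9, both still called.

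**Figure D2:**
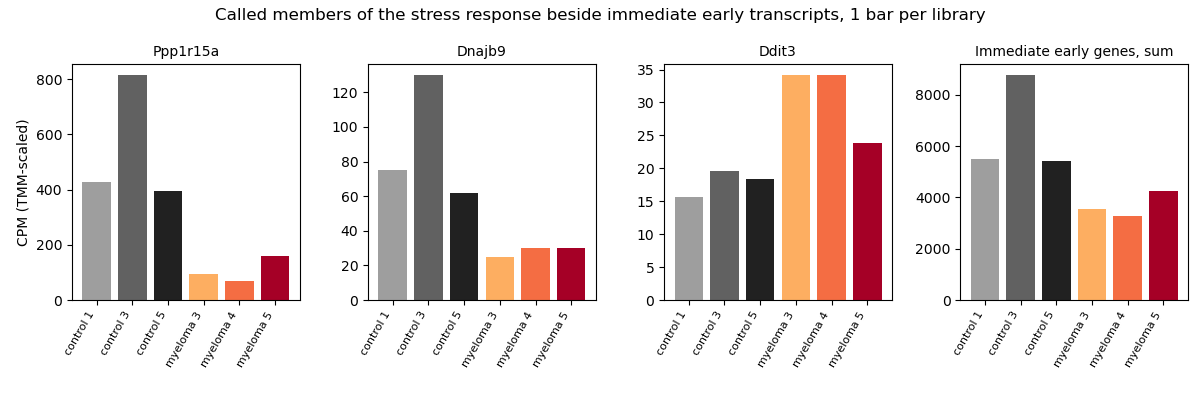
CPM of Ppp1r15a, Dnajb9 and Ddit3, and the summed CPM of 16 immediate early genes, 1 bar per library. Control replicate 3 is highest for Ppp1r15a (815), Dnajb9 (129.9) and the immediate early sum (8763), whereas Ddit3 is higher in all 3 myeloma libraries.

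Chaperones and Atf4 pathway genes are set side by side here, with no test of the difference between them. In the chaperone group 14 of 18 fold changes were above 0, and in the Atf4 pathway 2 of 6. A list of 35 further Atf4 targets, some of them named below, did not share that pattern, with 24 of 30 tested above 0. Its median log2 fold change was 0.20, beside 0.22 for the chaperones and 0.02 over all genes. Summed over members, the chaperones held 2359, 2581 and 2764 CPM in myeloma and 2399, 2393 and 2266 CPM in controls, so that replicate 3 did not exceed the controls. The Atf4 pathway held 326, 309 and 406 CPM against 656, 1149 and 648 CPM, a difference made mainly by Ppp1r15a. Per transcript length, in TPM (the length-scaled unit) of the control libraries, Ppp1r15a (mean 382) stood with Hspa5 (366), followed by Calr (255), Atf4 (230), Pdia3 (207) and Hsp90b1 (194), while Asns (2.28) and Fkbp11 (0.837) were near the bottom. TPM was used only to rank genes, because the median log2 ratio of group mean TPM, myeloma over control, was -0.22 over all genes and -0.11 over the members.

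The next question was whether the members followed the plasma cell transcripts. Within the myeloma group their sum was least in replicate 3, intermediate in replicate 4 and most in replicate 5, though Igha and Ighg2c ranked in reverse. The same ranking was seen in 16 of the 18 chaperones and in 22 of the 36 tested members, against 18.9% of all genes. Manf and Hspa13 were the chaperones that departed from it. It was seen in 1 of 6 Atf4 pathway genes (Asns), 1 of 4 translocon genes (Ssr2), 2 of 4 degradation genes (Sel1l and Syvn1) and 2 of 4 sensors (Xbp1 and Atf6). The chaperones share these 3 libraries and vary together, so the count is not 18 separate observations. The macrophage and B cell sums had the same ranking, and their part was not tested. In the controls the sum of the 13 genes ranked 1, 3, 5 at a far lower level, and 2 of 18 chaperones followed, against 20.6% of all genes. That control ranking was carried by light chain genes and shared by the B cell sum, while Jchain, Sdc1, Tnfrsf17 and Mzb1 together held 5.46, 3.87 and 8.71 CPM and did not rank so.

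The size of the ordering was small for most chaperones. Between myeloma replicates 3 and 5 the median chaperone differed by 0.26 on the log2 scale, against 0.09 for the Atf4 pathway, 0.04 for the translocon and -0.00 for all genes. For the further Atf4 targets the median was 0.19. Asns differed by 2.86, Creld2 by 1.02 and Fkbp11 by 0.94.

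**Figure D3:**
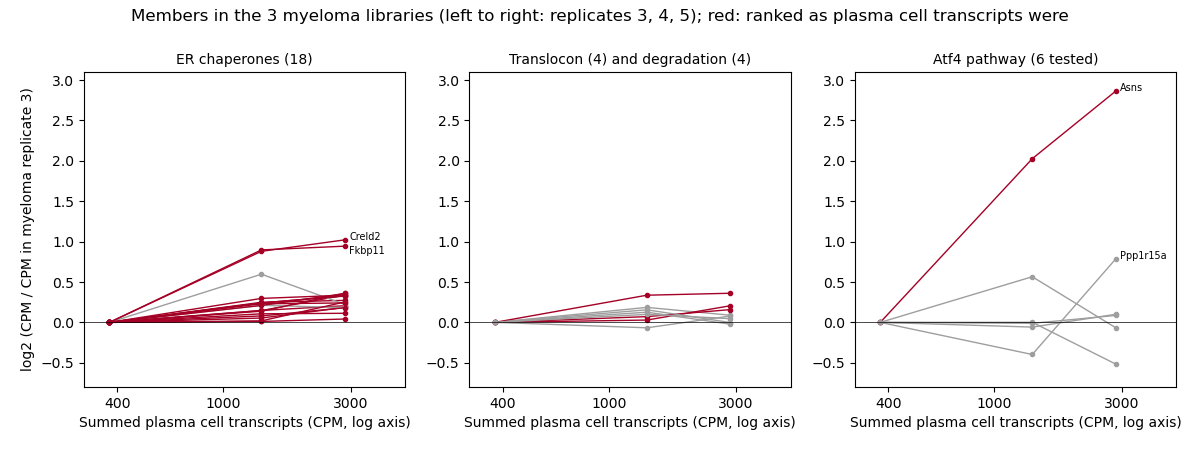
Log2 of CPM relative to myeloma replicate 3 for members of 4 role groups in 3 panels, against the summed CPM of 13 plasma cell genes (374, 1388 and 2856, log axis). Lines in red rank as the plasma cell transcripts do, which 16 of 18 chaperones and 1 of 6 Atf4 pathway genes did.

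A fit with the group and the log2 plasma cell level together gave no member a slope past the threshold. The adjusted p was above 0.05 for all 36 in either direction by edgeR and by limma-voom, and of all genes 0.0227% had a positive call in edgeR and 0.0378% in limma-voom. At an unadjusted p under 0.05, 6 members had a positive slope and 0 a negative one in edgeR (Creld2, Asns, P4hb, Pdia4, Atf6 and Dnajb11), against 5.14% and 2.47% of all genes, and 5 had a positive slope in limma-voom. The slope was above 0 for 34 of 36 members, including all 18 chaperones, against 50.6% of all genes. The log2 plasma cell level ran from 8.25 to 11.48 in myeloma but only from 5.55 to 6.83 in controls. The sign of the slope therefore rests mainly on the same 3 myeloma libraries as the ranking and is not a separate observation. Per doubling of the plasma cell level it was 0.70 for Asns (SE 0.26, adjusted p = 0.575), 0.27 for Creld2 (SE 0.09, adjusted p = 0.504), 0.07 for Manf, 0.02 for Sec61b and 0.00 for Pdia3, on the log2 scale. The fit leaves 3 residual degrees of freedom, and plasma cell level and group overlap little, since every myeloma library had more than every control.

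The group difference at equal plasma cell level was therefore imprecise. No member was called in that fit, with 4 above and 4 below 0 at an unadjusted p under 0.05 (edgeR). Of all genes, 0.514% were called higher and 0.121% lower there. The values of the members differed widely. Sec61b was at 0.66 (SE 0.21), Ssr4 at 0.51 (SE 0.20), Manf at 0.50 (SE 0.20) and Pdia3 at 0.39 (SE 0.18), whereas Dnajb11 was at 0.00 (SE 0.20) and Creld2 at -0.29 (SE 0.39). Dnajb9 was at -1.86 (SE 0.59), Ppp1r15a at -3.04 (SE 0.73) and Ddit3 at 1.12 (SE 0.34).

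Myeloma replicate 3, the myeloma library with least plasma cell RNA, was also set alone against the 3 controls. These libraries are part of the fit above too, so like values in both are not separate evidence. A lone sample has to be assumed to vary like the controls, and no member was called, against 1.1% of all genes higher and 0.152% lower, with 7 members above and 3 below 0 at an unadjusted p under 0.05 (edgeR). The median log2 difference was 0.06 for the chaperones, 0.41 for the translocon and -0.30 for the Atf4 pathway. Manf was at 0.63, Sec61b 0.69, Ssr4 0.45, Pdia3 0.38 and Ddit3 0.93, while Dnajb9 was at -1.83 and Ppp1r15a at -2.56. Hsp90b1 was at 0.02, Creld2 at 0.12 and Asns at -0.22.

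**Figure D4:**
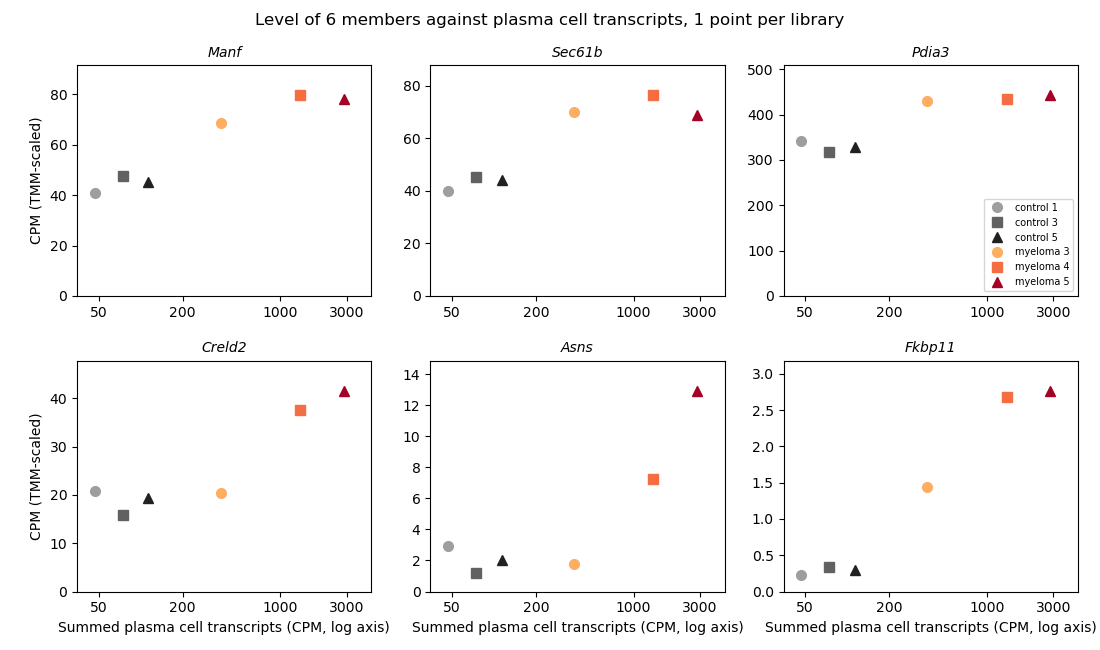
CPM of 6 members against the summed CPM of 13 plasma cell genes (log axis), 1 point per library. Manf, Sec61b and Pdia3 are already high in myeloma replicate 3 (plasma sum 374), whereas Creld2 (20.5 CPM) and Asns (1.78 CPM) are within the control range there.

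The calls were then set beside the promoter motifs. Of the 8 members with an ERSE in the window 1 was called higher (Pdia6) and 0 lower, with a median log2 fold change of 0.14. Of the 22 tested members whose window held none, 7 were higher and 2 lower, with a median of 0.35. Over all genes 6.33% were called higher and 4.69% lower, and the difference between the classes was not tested. Only exact matches within these short windows were sought, so a site farther off or with a changed base would be missed. Sec61b, Pdia3, Ddit3, Dnajb9 and Ppp1r15a held none of the 4 motifs in their windows. Of the 2 genes with an ERSE-II, Dnajb11 was called and Herpud1 was not, and none of the 3 tested genes with a CARE (Asns, Herpud1 and Trib3) was called by edgeR. Windows for Manf, Ssr2, Hyou1, Hspa13, Atf6 and Sec61a1 were not used here.

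Lists of further genes of the same pathways gave these counts. Of 35 further Atf4 targets 30 were tested, 6 rose and 2 fell (over all genes 6.33% and 4.69%), with a median log2 fold change of 0.20. The rises with the smallest p were Phgdh, which opens serine synthesis (0.44), the stress factor Atf5 (1.21), and the tRNA synthetases Aars (0.49) and Cars (0.46), with edgeR adjusted p of 0.0147, 0.0197, 0.0252 and 0.0339. The falls were Slc38a2, an amino acid transporter (-0.58, adjusted p = 0.0198), and Eprs, another tRNA synthetase (-0.30, adjusted p = 0.0376). Each of these 6 lost its call in at least 2 of the 6 fits without a library.

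Among 12 eIF2 kinases and factors, 1 rose and none fell (over all genes 6.33% and 4.69%). This was Eif2ak2 (Pkr), the interferon-induced kinase activated by double-stranded RNA, at 120.2, 96.1 and 146 CPM in myeloma against 60.9, 54.2 and 56.0 CPM in controls. The groups were far apart (log2 fold change 1.08, SE 0.14, edgeR adjusted p = 0.00311), and the call held whichever library was left out. With myeloma replicate 3 alone it was 1.07 (adjusted p = 0.00955), and beside the plasma cell level 0.93 and not called (adjusted p = 0.208). The Perk gene Eif2ak3 was not called, as given above.

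Of 59 other ER secretory genes 57 were tested, 5 rose and none fell (over all genes 6.33% and 4.69%), with a median of 0.16. Led by p, they were Ostc, a subunit of the oligosaccharyltransferase (0.42, edgeR adjusted p = 0.0192), Spcs1 of the signal peptidase (0.60, 0.0227), the channel subunit Sec61g (0.67, 0.0229) and Sdf2 (0.38, 0.0343). All 4 lost the call without some libraries, in 3 to 5 of the 6 fits. Beside the plasma cell level Spcs1 was at 1.16 and called (edgeR adjusted p = 0.0296), whereas Ostc, Sec61g and Sdf2 were not called. With myeloma replicate 3 alone Spcs1 was at 0.84. Of the 57, 16 ranked as the plasma cell transcripts did in the myeloma libraries, and so did 13 of the 30 further Atf4 targets. These counts stand beside 16 of 18 chaperones and 18.9% of all genes. Slopes on the plasma cell level were -0.10 for Sec61g and -0.15 for Spcs1, against a median of 0.07 over the chaperones.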

How the data were processed

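Total RNA of flow-sorted CD4+ FOXP3-GFP+ bone marrow cells was sequenced in 3 myeloma and 3 control samples (per the labels, with the RNeasy Micro and NEBNext Ultra RNA kits). STAR, RSEM, Picard, DESeq2 and build mm10 are named in the submitters' processing notes. The authors deposited 1 RSEM table per sample with the expected count, TPM, FPKM and effective length per gene, per the file headers; FPKM was not used. Genes were matched through their IDs (47224 of 47643 to a current symbol), and all 37 members were found. Expected counts were rounded, and edgeR 4.0.16 (R 4.3.3) was run with filterByExpr (minimum count 10, total 15), TMM factors and quasi-likelihood tests, with Benjamini-Hochberg adjustment over 13235 genes and a threshold of 0.05. CPM values are TMM-scaled. The slope fit added log2 of the summed plasma cell CPM. An exact permutation test of 3 against 3 cannot go below p = 0.1 and was not used. The scripts were tested on simulated data. There the group test recovered 28.4% of genes changed 1.5-fold, 62.7% of those changed 2-fold and 80.3% of those changed 4-fold. A gene not called may therefore still differ. The members and lists were chosen with earlier results of these data known. The named genes were all members, up to 4 called genes with the smallest p per direction of each pathway list, up to 3 of the immediate early list, and Foxp3. Alternatives used DESeq2 1.42.0, limma-voom 3.58.1, other scaling and filters, left-out libraries and a replicate block. The depth was 10240620 to 13314631 expected counts per sample.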

Additional observations from a re-analysis of the deposited data

How the results depend on the processing

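The 10 higher and 2 lower members became 0 and 0 with myeloma replicate 3 alone and 0 and 0 for the group term beside the plasma cell level; leaving out 1 library gave 3 to 9 higher and 2 lower. Without the filter on low counts 14 were higher and 3 lower, though the median log2 fold change of the members was 0.19 there against 0.21. By DESeq2 12 were higher and 2 lower. With outlier-robust dispersions 1 was lower. Replicate numbers 3 and 5 occur in both groups. Deviations of same-numbered samples from their group means correlated at 0.03 and 0.10, against -0.08 to 0.05 for samples with different numbers. With 3 samples per group these values cannot decide whether equal numbers share a day or batch. A replicate block gave 2 higher (Manf and Sec61b) and 2 lower. In that fit control replicate 1 and myeloma replicate 4 have no partner of the same number and add nothing to the group difference. The fewer calls may therefore reflect the loss of samples, and they cannot show an effect of a batch. The slope results stayed at 0 under all alternatives run. Of 969 values of single genes under alternatives, 758 kept direction and call, 163 lost the call, 10 gained it and 38 reversed, all of these for members not called. Reversed values of the group term beside the plasma cell level were -0.12 for Hsp90b1, -0.19 for Hspa13, -0.29 for Creld2, -0.0455 for Canx, -0.21 for Pdia4, -0.31 for P4hb, -0.12 for Xbp1, -1.31 for Asns, -0.0905 for Sel1l, -0.26 for Syvn1 and -0.0193 for Sec61a1. With myeloma replicate 3 alone they were -0.18 for Hspa13, -0.0072 for Canx, -0.11 for P4hb, -0.22 for Asns and -0.0665 for Sel1l. The block gave -0.0605 for Hspa13. Effective-length offsets gave 0.0211 for Hyou1, -0.14 for Canx, 0.001 for Sesn2 and -0.0582 for Sec61a1, and the length and GC correction 0.14 for Hyou1 and 0.0142 for Sesn2. Limma-voom gave 0.0249 for Sesn2, library sizes alone -0.0593 for Sel1l and -0.0356 for Sec61a1, and no filter -0.0037 for Sel1l. Leaving out 1 library gave -0.0649 to 0.23 for Hspa13, -0.0345 to 0.0164 for Hyou1, -0.0082 to 0.16 for P4hb, -0.18 to 0.17 for Sesn2, -0.0346 to 0.0408 for Sel1l, -0.0225 to 0.18 for Syvn1 and -0.0062 to 0.0723 for Sec61a1. The cause of these shifts was not tested. Depth limits Fkbp11 and Chac1, with at most 31 and 5 counts in a library.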
